A study of Homo sapiens and Mus musculus with 16 samples.

Results

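The chromatin regions described here lay in the long gaps between coding genes of HPAF-II, an established human cell line from pancreatic ductal adenocarcinoma (PDAC). A region was called far when it lay more than 200 kb from the start site of every protein-coding gene in the GENCODE annotation of hg38. By that rule 9087 of the 118107 accessible regions of control cells (7.69%) and 6437 of the 97047 regions of HNF4G-KO cells (6.63%) were far, 15524 of 215154 in all, and none of the regions in either list lay on an unplaced scaffold. Accessible chromatin was mapped by ATAC-seq, in which a transposase cuts open DNA and the cut fragments are sequenced. The control cells carried the label Cas9, and the HNF4G-KO cells were a pool of CRISPR clones with frameshifts in HNF4G, so that clonal differences and the loss of HNF4G cannot be told apart. The labels give the genotypes WT and KO and, as treatment, the CRISPR editing alone. Each group had 4 samples but a single deposited list of regions, with no count of reads behind it. There was thus no replicate error, no test between the groups was possible, and a longer list and a deeper library cannot be told apart. The other 8 samples of the series, from mouse KPC cell lines of primary tumour and liver metastasis, were not used here.

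Coding genes take up a small part of the genome, and some neighbouring genes are separated by stretches called gene deserts. Accessible regions in such stretches are often distal enhancers, which act on a promoter over a long distance by looping, or promoters of noncoding RNA genes, or sites bound by CTCF, a protein that anchors loops. HNF4G is a nuclear receptor of the gut and pancreas that binds a short DNA sequence as a dimer, and many of its sites lie in distal enhancers. FOXA1, the forkhead factor studied beside it, can open closed chromatin. Promoter regions of epithelial markers such as KRT19, EPCAM and CDH1 were accessible in both lists, for 6 of 6 genes, against 0 of 3 endothelial, 2 of 4 fibroblast and 2 of 4 immune genes. The frameshifts leave the HNF4G gene itself in place, so the lists cannot check the knockout.

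Sequences are shown for the highest-scoring far region found in only the control list and in only the HNF4G-KO list. Each is 200 bases around the centre of the region on the plus strand of hg38. Being extremes by score, they do not stand for far regions at large. The first is from the control-only region with the highest score, chr4:136320177-136320376, which lies 1209 kb from PCDH18, a protocadherin gene, inside the long noncoding RNA (lncRNA) gene ENSG00000251567. The other is from the highest HNF4G-KO-only region, chr7:68246527-68246726, 969 kb from SPDYE21 and inside the lncRNA gene ENSG00000226829. Capitals mark the AP-1 consensus TGACTCA in both, and the TEAD consensus ACATTCCA, on the opposite strand, in the first.
PCDH18 region: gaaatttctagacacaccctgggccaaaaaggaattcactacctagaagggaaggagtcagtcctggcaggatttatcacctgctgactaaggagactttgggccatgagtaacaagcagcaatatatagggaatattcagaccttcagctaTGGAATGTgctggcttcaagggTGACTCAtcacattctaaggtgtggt
SPDYE21 region: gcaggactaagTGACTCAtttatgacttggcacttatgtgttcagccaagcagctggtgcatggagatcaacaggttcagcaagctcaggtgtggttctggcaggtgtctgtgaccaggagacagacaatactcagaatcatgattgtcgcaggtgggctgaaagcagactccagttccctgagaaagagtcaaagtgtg

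Far regions carrying the HNF4 consensus CAAAGTCCA are shown as windows of 41 bases on the plus strand of hg38, with the consensus in capitals on whichever strand it lay. Near a gene, here and below, means that its start site is the nearest coding one, more than 200 kb away. Among the 47 control-only far regions with the consensus, 4 of the 6 highest by score were near SLITRK1 (chr13:84651987-84652027, 769 kb away), MAOA (chrX:43225836-43225876, 429 kb), GRM7 (chr3:6528316-6528356, 241 kb) and AADAT (chr4:170306441-170306481, 214 kb). The 6 also included regions 1283 kb from CDH2 and 900 kb from TUBA3C, which are not printed. The other windows come from far regions of both lists with the consensus, in the upper 50% by control score. Among these, the ranks most reduced in the HNF4G-KO list were near ACVR2A (chr2:146634847-146634887, 1209 kb away), NUDT12 (chr5:104089660-104089700, 526 kb), ACTL7B (chr9:108467814-108467854, 388 kb) and SLC6A15 (chr12:84501894-84501934, 360 kb).
SLITRK1, control-only: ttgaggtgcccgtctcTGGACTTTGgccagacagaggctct
MAOA, control-only: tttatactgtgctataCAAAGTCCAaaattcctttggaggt
GRM7, control-only: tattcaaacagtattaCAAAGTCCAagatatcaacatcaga
AADAT, control-only: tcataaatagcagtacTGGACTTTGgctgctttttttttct
ACVR2A, both lists: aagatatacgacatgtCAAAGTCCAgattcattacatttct
NUDT12, both lists: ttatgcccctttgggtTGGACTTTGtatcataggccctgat
ACTL7B, both lists: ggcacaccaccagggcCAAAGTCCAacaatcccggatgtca
SLC6A15, both lists: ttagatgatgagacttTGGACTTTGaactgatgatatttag

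Far regions were a weaker and more AT-rich class than the rest. Scores have no stated scale, so each was ranked within its own list, from percentile 0 for the lowest to 100 for the highest. The median percentile of far regions was 42.6 in the control list, against 50.6 for the other regions, and 40.8 against 50.5 in the HNF4G-KO list. Their median width in the control list was 404 bp, against 468 bp. Their median GC content was 45.2%, against 49.8%, and that of the surrounding 100 kb was 38.5%, against 43.5%. The median distance of a far control region to a coding start site was 348222 bp. Strong regions were still found among them, since 667 far regions (7.34%) stood in the top score decile of the control list, where 10.2% of the other regions stood.

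The lists show which of these regions were called in control cells and not in HNF4G-KO cells. As read depth is unknown, a region absent from a list need not be closed in those cells. Of all control regions, 25% had no overlap of at least 1 bp with a region of the HNF4G-KO list, and such regions are called control-only. Among far regions 3257 of 9087 were control-only, a share of 35.8% (95% Wilson interval 34.9 to 36.8), against 24.05% (23.8 to 24.3) of the other 109020 regions. The reverse share was low. Of all HNF4G-KO regions, 6.76% had no overlap in the control list, and for far regions it was 490 of 6437, or 7.61% (6.99 to 8.29), against 6.69% (6.53 to 6.86) of the others. Intervals here and elsewhere cover counting error alone and treat neighbouring regions as independent, which they are not, so they are too narrow. When both lists were cut to the size of the shorter by score, the control-only share of far regions was 24.5% and the HNF4G-KO-only share 14.2%.

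Weak regions are the ones most often absent from a second list, so far and other regions were compared at the same score decile and on the same chromosome. The control-only share of the other regions, weighted to match the far regions, was then 28.5%, and far regions exceeded it by 7.31 percentage points. For HNF4G-KO-only regions the far regions stood below the matched others, 7.62% against 8.61%, a difference of -0.993 points. This difference was small and depended on the choices made. It was 0.918 points without matching, -1.94 points with both lists cut to the same size, and -0.549 points (-1.17 to 0.126) when local GC content was matched as well. It was -0.420 points (-0.869 to 0.0535) with far set at 100 kb and -0.549 points (-1.28 to 0.316) in the upper 50% of the lists. By chromosome and at the same score decile, far regions had the higher control-only share on 23 of the 24 chromosomes with a far region, by 1.08 points on chromosome 17 to 16.4 points on chromosome 19, where 27 regions were far, and the same share on chromosome Y, which held 3. For the HNF4G-KO-only share they were higher on 5 chromosomes and lower on 18. Unmatched, the control-only share on chromosome 4 was 50.7% of far and 31.8% of other regions. On chromosome 19 it was 51.9% of the 27 far regions and 19.8% of the others.

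The excess of control-only far regions extended to regions of high score. In the lowest score decile 79.8% of far regions and 75.1% of the other regions were control-only, whereas in the fifth decile the shares were 29.3% and 17.6%. In the seventh decile the far share was 8.27% (6.59 to 10.3) and the other share 1.09%. Across the 3 highest deciles, 36 of 2116 far regions were control-only, or 1.70% (1.23 to 2.35), against 42 of 33268 others, or 0.126% (0.0934 to 0.171). Those 36 regions lay on 12 chromosomes, 8 of them on chromosome 4, which held 139 of the 2116 far regions and 10 of the 42 control-only others. In the same deciles of the HNF4G-KO list, 0 of 1456 far regions, which allows a share of up to 0.206% by the limit of 3 counts, and 1 of 27681 others were absent from the control list.

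The control-only share was higher in each successive bin of distance from coding start sites, with no step at 200 kb. It was 12.3% within 1 kb of a coding start site and 26.1% from 1 to 10 kb. Just outside the rule, from 150 to 200 kb, it was 31.6% of 3294 regions, and just inside it, from 200 to 250 kb, it was 33.3% of 2078 regions. It reached 39.5% from 500 kb to 1 Mb and 42.5% (38.8 to 46.2) of the 676 regions beyond 1 Mb. Each bin was then set against all regions within 200 kb of a coding start site, of the same decile and chromosome. Below 200 kb that reference included the bin's own regions. The difference was -3.01 points within 1 kb, 10.9 points from 500 kb to 1 Mb and 9.56 points beyond 1 Mb, so it was not highest in the farthest bin. The HNF4G-KO-only share stayed between 6.86% and 8.51% in the bins from 1 kb outward.

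GC content of the surrounding 100 kb moved with the same result. In the AT-richest decile of surroundings, which held 3523 of the far regions, 42.7% of far and 32.1% of other regions were control-only. In the GC-richest decile the shares were 19.5% of 77 far regions and 19.9% of the others, and in the other 8 deciles the far share was the higher, with intervals that overlapped in deciles 3 and 9. At the same score decile, local GC decile and chromosome the far regions exceeded the others by 4.50 points. The part of GC content in the result was not tested.

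**Figure D1:**
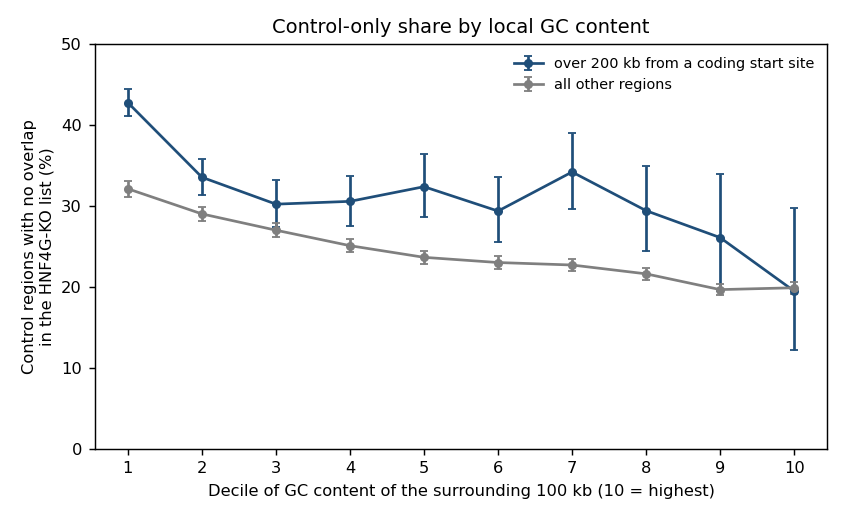
Control-only share of control regions (y axis, percent) by decile of the GC content of the surrounding 100 kb (x axis, 10 the highest), for far regions (blue) and all other regions (grey), with 95% Wilson intervals. The far share goes from 42.7% to 19.5% and lies above the other share in deciles 1 to 9.

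Far regions found in both lists ranked lower in the HNF4G-KO list. Each shared region was ranked among the shared regions of its list, and the change is the HNF4G-KO percentile minus the control percentile. The median change of the 5830 shared far regions was -2.59 points (95% interval of the median -2.999 to -2.22), against 0.152 points for the 82802 other shared regions. A change of at least 20 points downward was found in 6.89% of all shared regions and in 809 far regions, or 13.9% (13.0 to 14.8), against 6.40% of the others. A change of at least 20 points upward was found in 6.23% of all shared regions and in 283 far regions, or 4.85% (4.33 to 5.44), against 6.33% of the others. At the same control decile and chromosome the others reached 6.88% downward and 6.81% upward. Far regions from 500 kb to 1 Mb had the lowest median change of the distance bins, -3.73 points, with 18.0% of them down by at least 20 points. Beyond 1 Mb the median change was -2.79 points, and 12.1% were down by that much.

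Single far regions differed by far more than these medians. Of those in the upper 50% of either list, the greatest downward change of rank among shared regions was at chr4:123709087-123709785, inside LINC01091 and 309 kb from SPRY1, an inhibitor of receptor tyrosine kinase signalling. By that rank it went from percentile 89.2 in control cells to 10.8 in HNF4G-KO cells. A region 449 kb from NAF1, at chr4:162683745-162684580, went from 88.0 to 12.7, and one inside LINC02377, 1564 kb from PCDH10, at chr4:131584358-131585001, from 86.3 to 12.7. The fourth and the fifth lay 410 kb from TOX, an HMG-box factor gene (81.3 to 9.18), and 860 kb from TDRD15 (75.6 to 5.67). Thus 3 of these 5 regions lay on chromosome 4.

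Upward changes of the same size also occurred. A region 245 kb from STT3B, which encodes a catalytic subunit of the oligosaccharyltransferase, at chr3:31287708-31288135, stood at percentile 2.06 among the shared regions for control cells and 86.4 for HNF4G-KO cells. A region of 200 bp at chr9:107712073-107712272, 222 kb from KLF4, a zinc-finger factor of epithelial differentiation, went from 1.04 to 83.0. The next 3 were near FRG1 (7.11 to 87.8), VSTM2A (0.537 to 77.7) and SATB1, a chromatin organiser, inside SATB1-AS1 (0.145 to 76.4). The region near FRG1 lay within 500 kb of an assembly gap.

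The far regions of highest score were in both lists. Away from assembly gaps and immune receptor loci, the highest shared far region was at chr2:155879802-155880888, 448 kb from NR4A2, an orphan nuclear receptor gene, at percentile 99.97 in the control and 99.73 in the HNF4G-KO list. It was followed by a region inside LINC01121, 209 kb from SRBD1 (99.96 and 99.72), and one 357 kb from OTOL1 (99.96 and 99.99). Higher still by score were a region of low GC content next to the centromere of chromosome 3 and one on the short arm of chromosome 21 beside ribosomal RNA genes, both near assembly gaps. By contrast, after the region near PCDH18 at percentile 94.7, the highest control-only far regions were near SPHKAP (86.3), ADGRL3, an adhesion receptor gene (85.2), GOT2, inside LINC02141 (85.1), and EPHA6, an ephrin receptor gene (84.0). The highest HNF4G-KO-only far regions stood lower, near SPDYE21 (69.0), RBMS1 (67.6), NRG3, a neuregulin gene (58.9), ANKRD30A (50.5) and inside SUMF1 (50.5). Each of the 5 highest control-only far regions held an AP-1 consensus, as did 2 of the 5 highest HNF4G-KO-only regions. Over all far regions the consensus was in 29.5% of control-only and 22.7% of HNF4G-KO-only ones, and the 5 former were also wider (751 to 994 bp) than the 5 latter (232 to 604 bp).

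Many far regions stood in groups. Joined across gaps of at most 50 kb, the 9087 control regions made 1544 clusters and 1090 single regions, and 5379 of them (59.2%) stood in 555 clusters of 5 or more. With gaps of at most 25 kb that share was 35.0%. The control-only share was highest for single regions, 42.0%, followed by 39.7% in clusters of 2 to 4, 36.7% in clusters of 5 to 9 and 29.6% in clusters of 10 or more. At the same score decile, far regions outside clusters of 10 or more reached 35.3%. A control-only region more often stood beside another. Of 2799 control-only far regions with a far neighbour within 50 kb, the nearest was control-only for 42.5% (40.7 to 44.4), against 30.7% (29.4 to 32.0) of 5198 shared ones. These 2 shares were not matched for score, chromosome or local GC content, and neighbours have the latter 2 largely in common.

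The 187 clusters of 10 or more varied widely. Their median control-only share was 28.6%, with quartiles of 19.2% and 40.0%, and the extremes were 0% and 83.3%. The cluster with most regions, 65, spanned the immunoglobulin heavy chain locus on chromosome 14, whose gene segments the annotation does not type as protein coding, and 16 were control-only. The next was a cluster of 685 kb between IGFBP3, an insulin-like growth factor binding protein gene, and TNS3 on chromosome 7, with 60 regions of which 12 were control-only. The desert between SOX2, a stem cell factor gene, and ATP11B on chromosome 3 held 46 regions, 10 of them control-only. That between TBX3, a T-box factor gene, and MED13L on chromosome 12 held 44, with 7 control-only. The cluster around LINC00578 between TBL1XR1 and KCNMB2 held 43, with 13 control-only. In these 5 clusters 1 to 6 HNF4G-KO-only regions were found.

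Several clusters were nearly absent from the HNF4G-KO list. On chromosome 4, 10 of the 12 regions from 188361082 to 188455900 (hg38), at LINC01060 between TRIML1 and FRG1, were control-only, and the remaining 2 both ranked lower, with a median change of -44.6 points. Also on chromosome 4, 9 of 11 regions from 175238927 to 175422074 between ADAM29 and GPM6A, a neuronal membrane glycoprotein gene, were control-only, including 3 of the 5 in the upper 50% of the list. On chromosome 11, 13 of 16 regions between TENM4, a teneurin gene, and FAM181B were control-only, and the other 3, which were its 3 regions in the upper 50% of the list, ranked lower with a median change of -30.0 points. Of the regions that were not far within 1000 kb of these clusters, 8 of 14, 33 of 64 and 5 of 15 were control-only, against 24.05% of such regions in the whole list.

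Of the 187 clusters, 5 had no control-only region. They were the 11 regions between HLX, a homeobox gene, and DUSP10, a stress kinase phosphatase gene, on chromosome 1, and 10 regions each between LY86 and RREB1, between RNF144B and ID4, an inhibitor of helix-loop-helix factors, between CSNK1G3 and ZNF608, and between TRPC7 and SPOCK1. A count of 0 allows a share of up to 27.3% for 11 regions and 30.0% for 10, by the limit of 3 counts. Their median percentiles were 68.1 at HLX, 92.1 at RREB1, 58.0 at ID4, 41.4 at ZNF608 and 63.6 at SPOCK1, against 38.8, 42.6 and 27.3 in the 3 clusters above. The shared regions between RNF144B and ID4 still ranked lower by median, with a change of -10.4 points. The clusters at RREB1 and ID4 stood outside the naming rule and were added after their values were seen.

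Named gene groups were taken from the coding gene nearest to each far region, which need not be the gene it acts on. Among a list of 30 transcription factor genes, called lineage factors here and including MYC, 13 were nearest to a far control region, 207 regions in all. Of these, 51 were control-only, or 24.6% (19.3 to 30.9), against 25% of all control regions and 35.8% of far regions. MYC, a proto-oncogene of cell growth, had 46, of which 11 were control-only. SOX9, a ductal and progenitor factor, had 38 (8 control-only), KLF4 had 31 (9), SOX2 27 (4), FOXA2, a paralog of FOXA1, 18 (7), and KLF5, an epithelial proliferation factor, 16 (1). PROX1, a homeobox gene of the early pancreas and liver, had 10, of which 5 were control-only. The rest had 6 or fewer. Of the 156 shared regions in this group 100 had a lower rank in the HNF4G-KO list, and the median change was -2.81 points, near the -2.59 of far regions at large.

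Among long adhesion and neuronal genes, 3 were nearest to far regions that were nearly all control-only. Genes of this kind span long stretches of genome, so that a region inside one can be far from its start site. Of 30 such genes, 25 were nearest to a far control region, 238 in all, and 112 were control-only, or 47.1% (40.8 to 53.4), against 35.8% of all far regions. Of the regions nearest to LRP1B, a very long lipoprotein receptor gene, 20 of 20 were control-only, 17 of them inside the gene. For PCDH9, a protocadherin gene, 8 of 8 were, 2 of them inside the gene. For NAALADL2, a peptidase-like gene, 23 of 27 were, 16 of the 23 inside it. CTNNA2, an alpha-catenin gene of neurons, had 28 far regions with 9 control-only, MACROD2 27 with 10, CSMD1 19 with 5 and CDH13, which encodes T-cadherin, 13 with 3. None were control-only among the 4 of NRXN3 and the 3 of CNTN5. LRP1B, NAALADL2 and PCDH9, singled out after their values were seen, were nearest to 51 of the 112 control-only regions. Over the other 22 genes 61 of 183 far regions were control-only, or 33.3% (26.9 to 40.4). That interval includes the 35.8% of all far regions. Because the 3 genes were picked for their high shares, a lower share among the rest was bound to follow. Regions of the group also stood lower than those of the lineage factors, at a median percentile of 42.6 against 50.8.

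**Figure D2:**
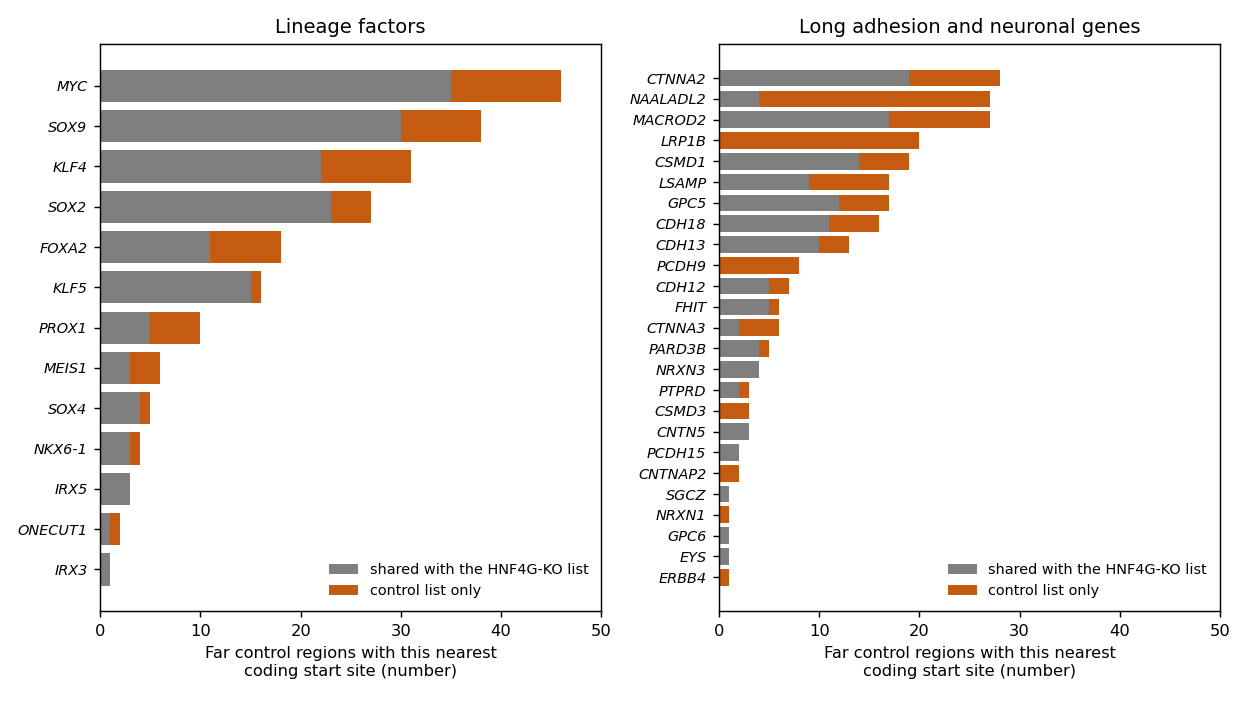
Number of far control regions (x axis) with each listed gene as nearest coding gene, divided into those shared with the HNF4G-KO list (grey) and those found in the control list only (orange), for lineage factors (left) and long adhesion and neuronal genes (right). LRP1B (20 of 20) and PCDH9 (8 of 8) are wholly orange, and MYC (11 of 46) and SOX9 (8 of 38) mostly grey.

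Over all coding genes, 1267 were nearest to a far control region. The longest counts away from immune loci and assembly gaps were 56 for FLRT2, a cell adhesion gene on chromosome 14 (25 control-only), 46 for MYC, 45 for ACVR2A, an activin receptor gene (13), 45 for IGFBP3 (9), 42 for TMEM132C (13), 41 for BTBD3 (20), 41 for GALC (11) and 41 for GATA3, a zinc-finger factor gene (6). TMEM121 stood above them with 84, all in the immunoglobulin heavy chain locus, and TPTE with 69, RPIA with 58 and DEFB115 with 47 lay mostly near assembly gaps. Leaving out the regions near gaps and in immune receptor loci, the control-only share of far regions was 36.0%.

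Far regions lay in the bodies of noncoding genes more often than other regions, but less often at their exons or starts. By gene body, a noncoding gene covered 3457 of them, or 38.0% (37.1 to 39.0), against 19.9% of the others. Most of these, 3331, lay in lncRNA genes, 171 in pseudogenes and 10 in small RNA genes. Exons of noncoding genes covered 531 (5.84%), against 7.97% of the others, and 5061 far regions (55.7%) lay in no gene body, coding or noncoding. Of far regions in a noncoding gene 35.1% (33.5 to 36.7) were control-only, against 36.3% of those outside. Within 1 kb of a noncoding start site lay 573 far regions (6.31%), against 9.30% of the others. Their control-only share was lower, 29.8% (26.2 to 33.7), and their median percentile higher, 54.6. Other regions within 1 kb of a noncoding start site were control-only in 14.9%.

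In all, 1193 noncoding genes held a far control region, and 407 held 3 or more. Each region was control-only in 21 of these 407, and none in 70. The gene with most was ENSG00000286481, an lncRNA gene of 985 kb on chromosome 2, with 38 regions of which 17 were control-only. LINC02240 had 36 (9 control-only), LINC00578 35 (12), LINC02964 30 (11), LINC00299 28 (7), LINC00511, beside SOX9, 27 (5), ENSG00000225689 26 (9), PKN2-AS1 25 (3), ENSG00000259345 24 (8) and ENSG00000282863 24 (4). Thus among the 10 the share ran from 12.0% in PKN2-AS1 to 44.7% in ENSG00000286481. Of 20 noncoding genes followed in gut and pancreatic cancers, 18 were in the annotation and 5 held far regions. LINC00511 held 27, PVT1, the neighbour of MYC, 14 (4 control-only), CASC15 10 (2), CYTOR 10 (3) and CASC19 1 (0).

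The strongest far regions at noncoding promoters were present in both lists. The highest was at chr16:54657271-54657817, at the start of ENSG00000283258 and 273 kb from IRX5, a homeobox gene, with percentile 99.83 in the control and 98.92 in the HNF4G-KO list. Away from gaps and the immunoglobulin locus it was followed by a region at MIR4458HG, LINC02226 and ENSG00000249159 (99.78 and 98.58), LINC01579 (99.77 and 96.33), LINC02871 near JAG1, a Notch ligand gene (99.71 and 99.67), LINC00944 (99.59 and 99.35), LINC00924 near NR2F2, a nuclear receptor gene (99.58 and 96.62), and LINC01572 near ZFHX3 (99.36 and 99.05). By rank among shared regions the change of these 7 ran from -3.76 points at LINC01579 and -3.18 at LINC00924 to 0.0197 at LINC02871.

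Consensus sequences were searched on both strands over the full region, so wider regions hold more of them and shares were compared at the same width decile. The HNF4 consensus was held by 143 far control regions, 1.57% (1.34 to 1.85), against 1.75% of other regions matched on width and GC content and 1.60% of all others. It was held by 47 control-only far regions, 1.44% (1.09 to 1.91), against 0.769% in shared far regions of the same width, a difference of 0.675 points. Before matching on width the direction was the reverse, 1.44% against 1.65%. Outside the far class the matched shares were 1.43% and 0.672%. The same letters written backwards, ACCTGAAAC, were held by 0.430% of control-only far regions and 0.337% of matched shared ones. Of the 490 HNF4G-KO-only far regions 2 held the HNF4 consensus (0.408%), against 0.986% of matched shared far regions.

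Shared far regions with the HNF4 consensus ranked lower in the HNF4G-KO list more often than those without. The median change of the 96 was -7.34 points (-9.19 to -4.87), and 79 of them ranked lower, against -2.49 points for the 5734 without. These 96 and 5734 regions were not matched for control score. Their median control percentiles were 67.96 and 45.5. The 1368 other shared regions with the consensus had a median change of -2.19 points. In the upper 50% of shared regions by control score, 57 of 64 far regions with the consensus ranked lower (89.1%, 79.1 to 94.6). The share was 71.2% (69.4 to 72.9) for far regions without it and 63.1% (59.9 to 66.2) for other regions with it. In the lower 50%, 22 of 32 far regions with the consensus ranked lower (68.75%, 51.4 to 82.05). That interval overlaps the 51.5% (49.7 to 53.2) of far regions without it. The median change of the 32 was -7.09 points (-15.6 to 3.33), an interval with both signs. With or without the consensus, far regions ranked lower more often in the upper 50%, which was picked by control score. The window near ACVR2A printed above came from a region that stood at percentile 74.7 of the whole list for control cells and 25.6 for HNF4G-KO cells. The regions near NUDT12, inside the lncRNA gene NIHCOLE (75.7 to 33.2), ACTL7B (73.5 to 38.7) and SLC6A15 (67.2 to 31.5) were the others shown.

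Among the other sequences, far regions were richer in FOXA and AP-1 consensus at the same width and GC content. The FOXA consensus TGTTTAC was in 13.1% (12.4 to 13.8) of far control regions, against 10.6% of matched others, and TGACTCA, bound by AP-1, in 38.5% (37.5 to 39.5) against 35.5%. The KLF consensus was in 1.57% (1.34 to 1.85) against 2.07%, and the GATA consensus AGATAAG in 7.35% (6.83 to 7.91) against 7.67%. Within the far class the largest gap was for the CTCF consensus, found in 2.30% (1.84 to 2.88) of control-only regions and 5.75% of shared regions of the same width. FOXA was in 8.63% and 8.77%, and AP-1 in 29.5% and 32.3%. Outside the far class the order was the same, with CTCF in 2.70% and 4.88% and AP-1 in 22.7% and 26.8%. GATA was in 5.19% (4.48 to 6.005) of control-only far regions and 4.24% of matched shared ones, while outside the far class the order was the reverse, 3.86% and 4.29%. A match of letters describes the sequence and does not show that a factor was bound.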

How the data were processed

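The authors prepared Omni-ATAC libraries from 8 HPAF-II samples and sequenced them on a NovaSeq instrument with paired 50-bp reads. The submitters' processing notes name Bowtie2 2.2.6, MACS2 2.1.1.20160309, DiffBind and hg38, without a role. The peak caller's threshold, the read shift and the handling of replicates are not given in the sources used here for ATAC-seq. The deposited files are BED lists, 1 per group, with a score per region whose scale is not stated, so the authors' scores were used only as ranks within a list. Read depth is unknown.

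Regions were measured from their edges to GENCODE release 44 start sites of protein-coding genes in Python 3.11.15 (numpy 2.4.6, pandas 2.3.3, scipy 1.17.1). Lists were joined by overlap of at least 1 bp. A region with several partners took the one with the longest overlap. Shares carry 95% Wilson intervals, and a count of 0 an upper limit of 3 counts. Matched shares weight the other regions to the far regions' strata. No test between groups was possible with 1 list each. Scripts were tested on simulated data. The members, gene lists and naming rules (the 5 highest or most changed regions of a kind, the largest and the extreme clusters, the 10 leading genes, and the list genes with a far region) were chosen with earlier results of these data known. Columns of mouse lists were left out.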

Additional observations from a re-analysis of the deposited data

How the results depend on the processing

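Of 103 recomputed values over 10 results, 70 stayed within the counting interval of the reported value (within 1.5 times, for the count), 31 moved outside it and 2 changed sign. No paired analysis was possible because each group has a single list, and for the same reason no sample was left out. Read depth is unknown and limits each share.

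With a distance of more than 100 kb in place of 200 kb, 17943 control regions were far, 33.2% were control-only, 5.505 points above matched others, their median percentile change was -2.34 points relative to other shared regions, 63.7% stood in clusters and 36.3% in noncoding genes. With more than 500 kb these values were 2628, 40.3%, 10.1 points, -3.61 points, 48.9% and 33.3%, and the median score percentile was 41.7. Counting as shared only overlaps of at least 50% of a region gave a control-only share of 41.9% and an HNF4G-KO-only share of 9.27%. With the upper 50% of each list the HNF4G-KO-only share was 4.60% and the matched control-only difference 10.05 points. With both lists cut to the smaller size the shares were 24.5% and 14.2%, and the matched HNF4G-KO-only difference -1.94 points. That difference was -0.420 points (-0.869 to 0.0535) at 100 kb, -0.980 (-2.16 to 0.387) at 500 kb, -0.549 (-1.28 to 0.316) in the upper 50% of the lists and -0.549 (-1.17 to 0.126) at matched local GC content, and each of these intervals includes 0. Percentiles within the whole list gave a median change of -3.84 points relative to others. Cluster gaps of 25 and 100 kb put 35.0% and 76.7% of far regions in clusters. The share in noncoding genes was 36.7% for lncRNA genes, 5.84% for exons, 40.1% without regions inside coding genes, and 35.3% with start sites of protein-coding transcripts alone. The HNF4 difference was 1.84 points with 1 mismatch and -0.204 points without matching on width (median width 276 bp in control-only and 522 bp in shared far regions). Of the alternatives added after seeing the data, leaving out chromosome 4 gave a control-only share of 34.8%, and matching on local GC content a difference of 4.50 points. Without matching, also added, the control-only difference was 11.8 points and the HNF4G-KO-only difference 0.918 points, the reverse of the matched -0.993. The unmatched HNF4G-KO-only and HNF4 differences were the 2 that changed sign.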
